A study of Homo sapiens with 9 samples.

Results

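FOS, FOSB, FOSL2, JUN, JUNB, JUND, EGR1, EGR3, IER2 and MYC were examined as a set of 10 immediate early genes and close relatives in SKMEL28, an established human melanoma cell line. The members were the rows of the gene table whose symbol matched these names, 10 of 48162 genes in the table, and all 10 were among the 15776 genes tested. RNA-seq compared cells with 3 kinds of lentiviral short hairpin RNA: a control directed at GFP (shCont), one directed at p16 (shp16), and the p16 hairpin together with one directed at ATR (shp16+shATR). p16 is an inhibitor of CDK4 and CDK6 that is encoded by CDKN2A, and ATR is a kinase of the replication stress response. The design asked how transcription changed upon loss of p16 and upon the added loss of ATR.

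Each of the 3 groups had 3 libraries. All groups were grown in DMEM with 5% FBS, transduced with lentivirus and selected with puromycin at 1 ug/ml for 3 days, so every group carried at least 1 hairpin vector. No group received the ATR hairpin alone, and which of the study's ATR hairpins was used was not stated. Transcript data of this kind were described as technical replicates of 1 experiment, so the p-values below measure only the spread between libraries, which may be technical. The shCont and shp16 count columns carry replicate numbers 1 to 3. The 3 shp16+shATR count columns share a single name and are called a, b and c. Their values match those of FPKM replicates 1, 2 and 3 in that order, but the numbers were not assigned from values.

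Immediate early genes are transcribed within minutes of a stimulus such as a growth factor or stress, without the need for new protein synthesis. FOS and JUN proteins pair through leucine zippers to form AP-1, which binds the TGAGTCA element, while EGR1 and EGR3 are zinc finger factors that bind GC-rich elements. MYC pairs with MAX and drives genes of ribosome synthesis and growth, and in melanoma cells with a mutated BRAF kinase several of these genes are read as outputs of the ERK pathway.

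Total counts ran from 17314662 to 23588174 per library. All 9 melanocyte lineage markers, including SOX10, PMEL and MLANA, were detected in every library, and the shCont libraries held a summed 13480 to 15080 CPM of them (counts scaled to library size by TMM normalization), against 7845 to 13100 for shp16 and 11060 to 13170 for shp16+shATR. Of these 9 genes, TYRP1 and S100B were called lower in shp16 than in shCont (log2 -0.43 and -0.68), and in shp16+shATR PAX3 and S100B were called higher and TYRP1 lower than in shp16 (0.62, 0.67 and -0.88). The 11 markers of other cell types summed to 34.2 to 45.5, 35.6 to 51.4 and 35.2 to 40.1 CPM, with 2 to 6 of them at 0 counts in a library. The keratinocyte genes KRT5 and KRT14 had 0 and 3 counts over the shCont libraries, 144 and 144 over the shp16 libraries and 83 and 123 over the shp16+shATR libraries. Their part in the results was not tested.

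CDKN2A stood at 162, 113 and 103 CPM in shCont 1 to 3, 78.1, 93.5 and 99.9 CPM in shp16 1 to 3, and 82.6, 90.0 and 82.4 CPM in shp16+shATR a to c. The highest shp16 library was below the lowest shCont library, but the log2 difference of -0.48 did not pass the test (adjusted p = 0.0723, edgeR's quasi-likelihood test with Benjamini-Hochberg adjustment over all genes tested, as for every adjusted p below). ATR stood at 39.9, 40.0 and 41.0 CPM in shp16+shATR, and the log2 fold change against shp16 was -1.12 (adjusted p = 0.0128, edgeR). The library labelled shCont replicate 1 held 45.9 CPM of ATR, against 93.5 and 96.4 in shCont 2 and 3. Its CDKN2A, at 162 CPM, was the highest of all libraries. Its EGR1, at 51.6 CPM, was like that of shCont 2 and 3 (51.7 and 52.0 CPM). IL8 stood at 94.2 to 98.7 CPM over the shCont libraries and at 18.3 to 20.2 CPM over the shp16 libraries. The reason for the low ATR of the library labelled shCont replicate 1 was not tested. This library also stood apart from its replicates over all genes, with a chi-square per degree of freedom of 68.5 and 83.4 against 5.15 between shCont 2 and 3. The library labelled shp16 replicate 1 stood apart less, at 37.9 and 37.2 against 1.94. Results are therefore also given without the library labelled shCont replicate 1, or without both. All libraries share 1 estimate of the spread, so leaving out a library that is not in a comparison can also change its calls. The BCV, edgeR's coefficient of variation between libraries beyond counting noise, was 0.149 with all libraries and 0.0903 without the library labelled shCont replicate 1.

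EGR1 had the largest change of the 10 genes in shp16 against shCont. It rose 3.01-fold with p16 knockdown, and the level in shp16+shATR was 0.409 times that in shp16. JUN and FOS moved the same way to a smaller extent, by 1.65-fold and 1.39-fold upward in shp16 and to 0.64 and 0.605 times the shp16 level in shp16+shATR. FOSL2 fell in both steps. In bulk RNA, fewer cells with a transcript and less of it in each cell cannot be told apart. In all, 3 members were called higher and 1 lower in shp16 against shCont, where 7.23% of all genes tested were called higher and 7.59% lower. The groups did not overlap for 4 of the 10 members, against 33.6% of all genes. Of all called genes 48.8% were higher, and 38.5% with upper-quartile scaling.

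In shp16+shATR against shp16, 6 of the 10 members were called lower, namely FOS, FOSB, FOSL2, JUN, EGR1 and MYC, where 3.49% of all genes were called lower. The members were chosen with earlier results of these data known. Their counts and medians beside all genes, in each comparison, are therefore a description and no test of the set. With all 9 libraries in the fit, no member was called higher by edgeR, also not at an unadjusted p below 0.05, nor by DESeq2, where 2.73% of all genes were called higher at the adjusted threshold. JUND was called higher when the groups compared were fitted alone (0.35, adjusted p = 0.00283, edgeR) or without the library labelled shCont replicate 1 (0.35, adjusted p = 0.00128, edgeR). With all 9 libraries, the median log2 fold change was -0.44 over the members and 0.00214 over all genes tested. The groups did not overlap for 9 of the 10, against 37.7% of all genes. Of all called genes 43.8% were higher, and 54.2% with upper-quartile scaling. The comparisons share libraries, so a high shp16 library enters the rise in one and the fall in the other.

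**Figure D1:**
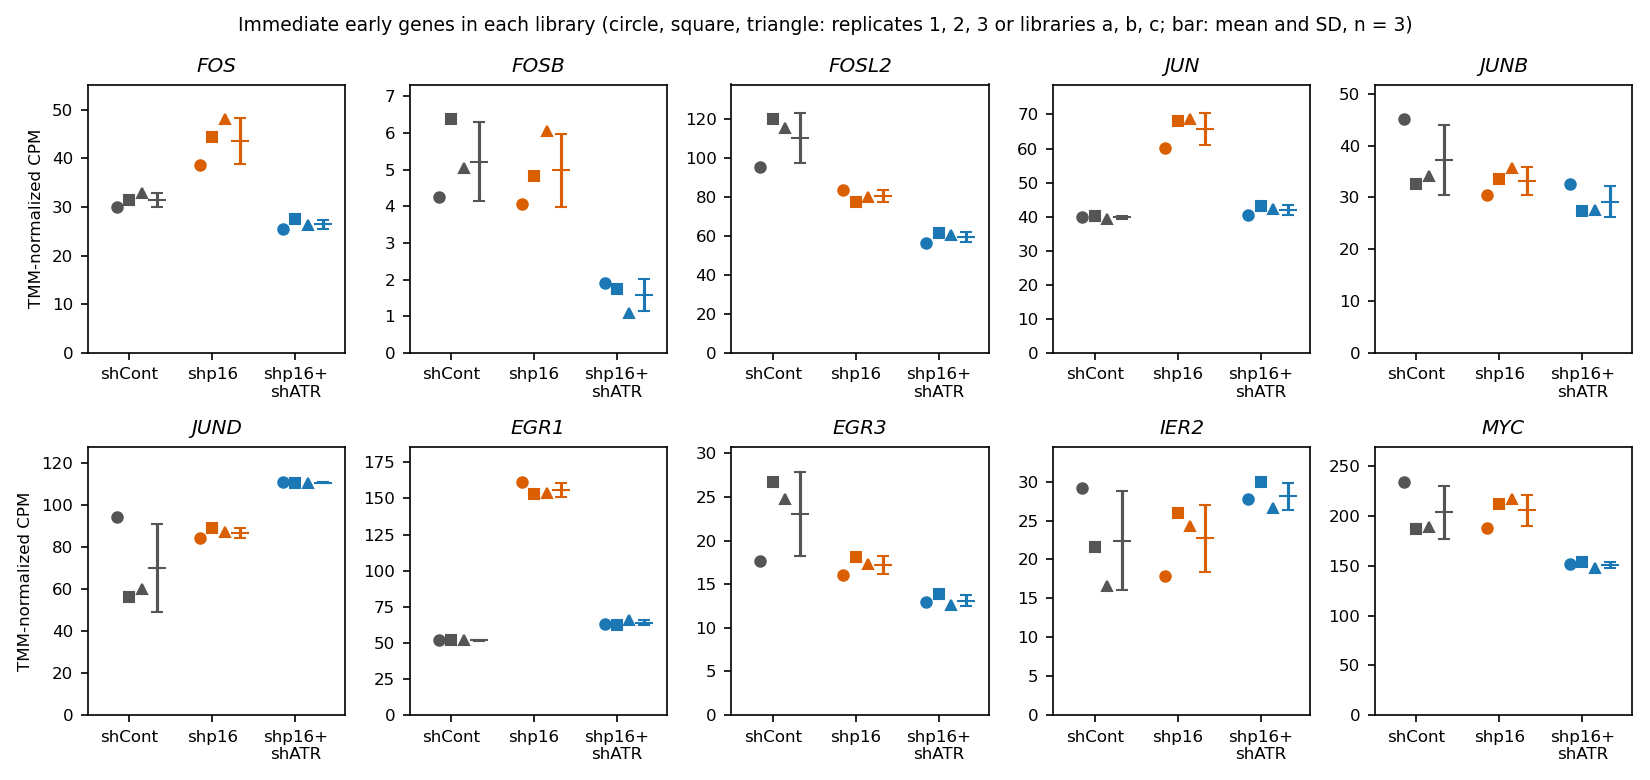
TMM-normalized CPM (vertical axis, from 0) of the 10 genes in each library of shCont, shp16 and shp16+shATR, with the mean and SD of 3 libraries beside the points. EGR1 stood at 153 to 162 CPM in shp16 and at 51.6 to 65.9 CPM in all other libraries, while JUND in the library labelled shCont replicate 1 stood at 94.2 CPM, above both other shCont libraries.

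FOS, the founding partner of the JUN proteins in AP-1, is on chromosome 14 (75745477 to 75748933, plus strand, in the coordinates of the deposited table). FOS stood at 30.0, 31.3 and 32.9 CPM in shCont, at 38.6, 44.3 and 48.0 CPM in shp16, and at 25.5, 27.5 and 26.2 CPM in shp16+shATR. The 3 groups did not overlap, with shp16 highest and shp16+shATR lowest. The log2 fold change was 0.48 in shp16 against shCont (SE 0.11, adjusted p = 0.0144, edgeR), and this call was lost without shp16 replicate 2 (adjusted p = 0.0549, edgeR) or 3 (adjusted p = 0.0717, edgeR). In all, 7 of the 23 alternative analyses did not call this rise. The fall in shp16+shATR against shp16 was -0.72 (SE 0.111, adjusted p = 0.00357, edgeR) and was called in all 22 alternative analyses. Against shCont, FOS in shp16+shATR differed by -0.25, which did not pass the test (adjusted p = 0.13, edgeR) until the library labelled shCont replicate 1 was left out (-0.28, adjusted p = 0.0369, edgeR).

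FOSB, a FOS paralogue with a truncated splice form, was the least abundant member. It stood at 4.24, 6.37 and 5.04 CPM in shCont, at 4.05, 4.84 and 6.04 CPM in shp16, and at 1.90, 1.73 and 1.08 CPM in shp16+shATR. The shCont and shp16 libraries overlapped, and all shp16+shATR libraries lay below both. FOSB fell by 1.66 on the log2 scale in shp16+shATR against shp16 (SE 0.263, adjusted p = 0.00427, edgeR) and by 1.73 against shCont (adjusted p = 0.000745, edgeR). These falls rest on 94 counts over the 3 shp16+shATR libraries, against 304 in shp16 and 321 in shCont. By limma on the log2(FPKM + 1) scale, which understates the change of a gene this low, the falls were -0.71 and -0.75 (adjusted p = 0.0198 and 0.00474).

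FOSL2, which encodes the FOS-related protein FRA2, is on chromosome 2 (28615315 to 28640179, plus strand). It stood at 95.7, 120 and 116 CPM in shCont, at 83.6, 77.6 and 80.2 CPM in shp16, and at 56.6, 61.4 and 60.3 CPM in shp16+shATR. The groups did not overlap, with shCont highest and shp16+shATR lowest. The log2 fold change was -0.46 in shp16 against shCont (adjusted p = 0.0178, edgeR), which was lost without shCont replicate 2 (adjusted p = 0.0681, edgeR), shp16 replicate 2 (adjusted p = 0.0784, edgeR) or shp16 replicate 3 (adjusted p = 0.0685, edgeR). With the ATR hairpin added the log2 fold change was -0.44 (adjusted p = 0.038, edgeR), and it was lost on leaving out shCont replicate 2, any shp16 library or any shp16+shATR library (adjusted p = 0.0509 to 0.203, edgeR). In all, 8 of the 23 alternative analyses did not call the first fall, and 13 of the 22 did not call the second. The fall over both steps, -0.89 in shp16+shATR against shCont (SE 0.111, adjusted p = 0.000185, edgeR), did not depend on any 1 library.

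JUN, the partner that can also pair with itself, is on chromosome 1 (59246465 to 59249785, minus strand). It stood at 39.9, 40.1 and 39.2 CPM in shCont, at 60.2, 68.2 and 68.5 CPM in shp16, and at 40.4, 43.2 and 42.3 CPM in shp16+shATR. All shp16 libraries lay above all others, and the shp16+shATR libraries began just above the highest shCont library. JUN rose by 0.72 on the log2 scale in shp16 (SE 0.0986, adjusted p = 0.00057, edgeR) and fell by 0.64 in shp16+shATR against shp16 (SE 0.0984, adjusted p = 0.00357, edgeR), and both calls held on leaving out any 1 library. With the replicate number as a block in shCont and shp16 alone, the rise was 0.72 (adjusted p = 0.0511, edgeR). For shp16+shATR against shCont the difference was 0.08 with a 95% interval of -0.14 to 0.30, which did not pass the test (adjusted p = 0.608, edgeR).

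JUNB, a JUN paralogue often opposed to JUN in cell cycle control, showed no called difference with all libraries. It stood at 45.0, 32.6 and 34.2 CPM in shCont, at 30.4, 33.6 and 35.7 CPM in shp16, and at 32.6, 27.4 and 27.5 CPM in shp16+shATR. The groups overlapped in all comparisons. The log2 differences were -0.17 in shp16 against shCont (95% interval -0.47 to 0.14) and -0.19 in shp16+shATR against shp16 (-0.50 to 0.12). The latter was called lower without both libraries that stood apart (-0.26, adjusted p = 0.0297, edgeR).

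JUND, the JUN paralogue that is expressed widely in resting cells, was highest in shp16+shATR. It stood at 94.2, 56.4 and 59.9 CPM in shCont, at 84.4, 88.9 and 87.3 CPM in shp16, and at 111, 111 and 110 CPM in shp16+shATR. The shCont and shp16 libraries overlapped through the library labelled shCont replicate 1 alone. JUND was called higher in shp16+shATR than in shCont (log2 0.66, SE 0.166, adjusted p = 0.0144, edgeR), a call that was lost without shCont replicate 2 (adjusted p = 0.0542, edgeR). With all libraries, the differences of 0.31 in shp16 against shCont (adjusted p = 0.245, edgeR) and 0.35 in shp16+shATR against shp16 (adjusted p = 0.27, edgeR) did not pass. Without the library labelled shCont replicate 1 they were 0.57 (adjusted p = 9.72e-05, edgeR) and 0.35 (adjusted p = 0.00128, edgeR), so both calls depended on this library. It is not part of shp16+shATR against shp16, where the difference stayed at 0.35, and enters that test through the shared estimate of the spread. With each library's trend in GC content and gene length removed, a correction chosen after seeing the data, the first was 0.57 (adjusted p = 0.000645, edgeR). The difference in shp16+shATR against shp16 was then 0.25 and not called (adjusted p = 0.0776, edgeR).

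EGR1 is on chromosome 5 (137801179 to 137805004, plus strand). It stood at 51.6, 51.7 and 52.0 CPM in shCont, at 162, 153 and 153 CPM in shp16, and at 63.2, 62.7 and 65.9 CPM in shp16+shATR. The groups did not overlap, and the coefficient of variation between replicates was 0.357%, 3.12% and 2.69% for the 3 groups in this order. EGR1 rose by 1.59 on the log2 scale in shp16 (SE 0.0927, adjusted p = 1.15e-06, edgeR) and fell by 1.29 in shp16+shATR against shp16 (SE 0.0919, adjusted p = 6.22e-05, edgeR). The rise was called in all 23 alternative analyses run for it and the fall in all 22. The remaining difference of 0.30 between shp16+shATR and shCont passed the test (adjusted p = 0.0327, edgeR) but not when any 1 of 7 libraries, shCont 2 or 3, shp16 2 or 3 or a shp16+shATR library, was left out (adjusted p = 0.0606 to 0.127, edgeR).

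EGR3, a relative of EGR1 with zinc fingers of the same kind, was not called higher with p16 knockdown. It stood at 17.6, 26.8 and 24.8 CPM in shCont, at 16.05, 18.2 and 17.4 CPM in shp16, and at 12.9, 13.8 and 12.6 CPM in shp16+shATR. The shp16+shATR libraries were the lowest, and shCont and shp16 overlapped through the library labelled shCont replicate 1. Of the 3 log2 differences, the -0.81 in shp16+shATR against shCont passed (SE 0.154, adjusted p = 0.00289, edgeR), while the -0.42 in shp16 against shCont (adjusted p = 0.0856, edgeR) and the -0.39 in shp16+shATR against shp16 (adjusted p = 0.18, edgeR) did not. Without the library labelled shCont replicate 1 the latter were -0.59 (adjusted p = 0.00102, edgeR) and -0.39 (adjusted p = 0.01, edgeR).

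IER2, a small nuclear protein of the immediate early response, showed no called difference with all libraries. It stood at 29.2, 21.6 and 16.5 CPM in shCont, at 17.8, 25.9 and 24.3 CPM in shp16, and at 27.8, 30.0 and 26.6 CPM in shp16+shATR. The shCont libraries spread over nearly the whole range of the others. Without the library labelled shCont replicate 1, IER2 in shp16+shATR was 0.56 above shCont on the log2 scale (adjusted p = 0.0157, edgeR), against 0.33 with it (adjusted p = 0.26, edgeR). Without both libraries that stood apart, IER2 was also called higher in shp16 against shCont (0.40, adjusted p = 0.0107, edgeR), where the difference with all libraries was 0.016.

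MYC stood at 235, 188 and 189 CPM in shCont, at 188, 212 and 217 CPM in shp16, and at 151, 154 and 148 CPM in shp16+shATR. The shCont and shp16 libraries overlapped, and all shp16+shATR libraries were the lowest. The log2 difference of 0.01 in shp16 against shCont had a 95% interval of -0.24 to 0.27, and it was 0.19 and called without both libraries that stood apart (adjusted p = 0.0115, edgeR). In shp16+shATR the fall was -0.45 against shp16 (adjusted p = 0.0431, edgeR), which was lost on leaving out shCont replicate 2, shp16 replicate 2 or 3, or any shp16+shATR library (adjusted p = 0.057 to 0.17, edgeR). In all, 12 of the 22 alternative analyses did not call it. Against shCont the fall was -0.43 (adjusted p = 0.0188, edgeR), which was lost on leaving out any shp16+shATR library (adjusted p = 0.0631 to 0.0782, edgeR).

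In shp16+shATR against shCont, the called members were FOSB, FOSL2, EGR3 and MYC, lower, and JUND and EGR1, higher. All genes were called higher at 10.9% and lower at 12.7%, and the groups did not overlap for 8 of the 10 members against 41.5% of all genes. Without the library labelled shCont replicate 1, 6 of the 10 members were called in shp16 against shCont, 8 in shp16+shATR against shp16 and 8 in shp16+shATR against shCont, where 25.9%, 19.9% and 33.3% of the 16184 genes then tested were called. Without both libraries that stood apart, an alternative added after seeing the data, 8, 9 and 8 members were called, where 32.7%, 26.7% and 44.3% of the 16104 genes then tested were.

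**Figure D2:**
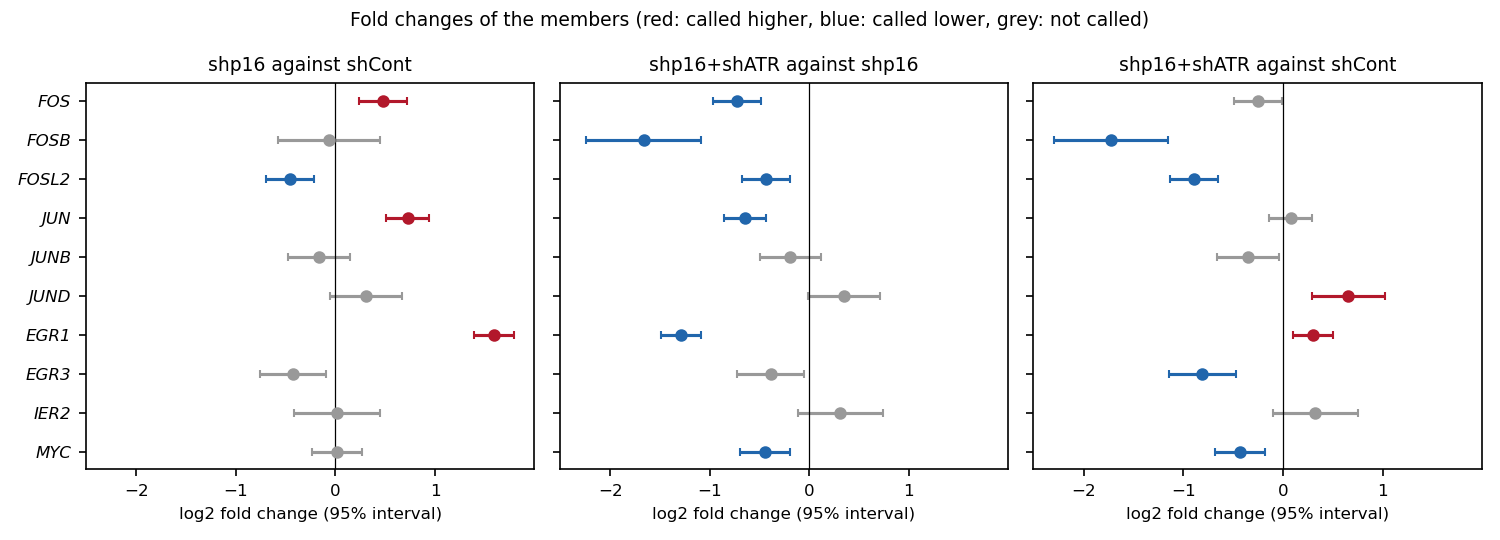
log2 fold change (horizontal axis) with its 95% interval for the 10 genes in the 3 comparisons, from edgeR over all 9 libraries. EGR1 lay at 1.59 with p16 knockdown and at -1.29 with the ATR hairpin added, and FOSB had the widest interval, -2.24 to -1.09 in the latter comparison.

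**Figure D3:**
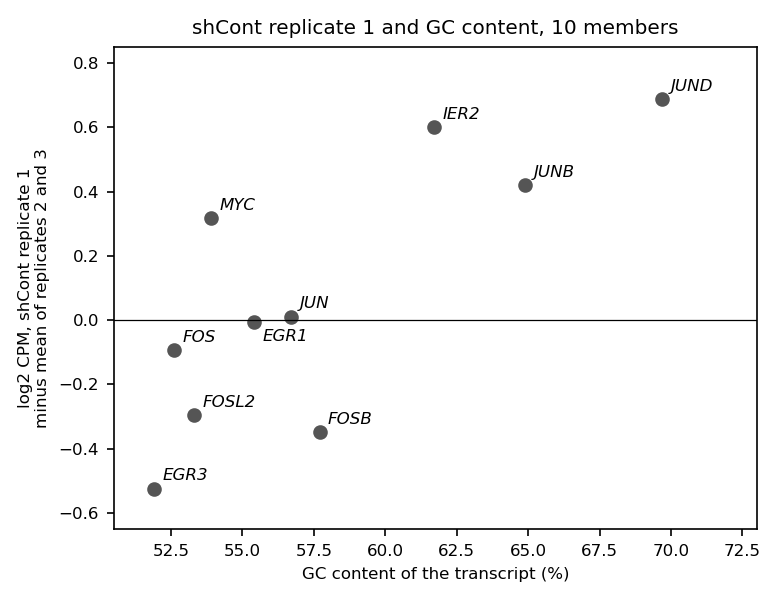
GC content of each member's principal GENCODE 29 transcript (horizontal axis, percent) against the log2 CPM of the library labelled shCont replicate 1 minus the mean of replicates 2 and 3 (vertical axis). JUND, at 69.7% GC, lay 0.69 above its replicates, and EGR3, at 51.9% GC, lay 0.52 below them.

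Across all tested genes with a GC value, the deviation of the library labelled shCont replicate 1 had a Pearson r of 0.51 with transcript GC content (15306 genes, which are not independent replicates). Among the members, the most GC-rich, JUND, JUNB and IER2, were the ones highest in that library relative to its replicates, by 0.69, 0.42 and 0.60 on the log2 scale. The other members did not follow the order of GC content. FOSB, at 57.7% GC, differed by -0.35 and MYC, at 53.9%, by 0.32. EGR1 and JUN differed from their replicates there by -0.01 and 0.01, and without this library their rises in shp16 were 1.58 and 0.72. With the GC content and gene length trends of each library removed, EGR3 was called lower in shp16 against shCont (-0.48, adjusted p = 0.0157, edgeR) beside JUND, IER2 was called higher in shp16+shATR against shCont (0.41, adjusted p = 0.022, edgeR), and the JUNB difference in shp16 against shCont went from -0.17 to 0.011, not called.

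Per length, MYC was the most abundant member and FOSB the least. In FPKM, which the authors scaled by gene length and total counts, MYC had 86.7 ± 8.08 (SD, n = 3) for shCont, 87.7 ± 10.8 for shp16 and 64.4 ± 2.35 for shp16+shATR. EGR1 had 16.5 ± 0.674, 49.5 ± 1.02 and 20.4 ± 0.243 FPKM, and so moved from a level like that of FOSL2 in shCont (16.5 ± 2.54) to one like that of JUND in shp16 (46.3 ± 3.50). Averaged over the 9 libraries, MYC stood at the 95.2 percentile of the genes tested, JUND at 91.4 and EGR1 at 85, while EGR3 stood at 43.5 and FOSB at 22.4.

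Within the FOS family, the most abundant gene per length was FOSL1, which encodes FRA1 and is not one of the 10. FOSL1 made up 60.6% of the summed FPKM of FOS, FOSB, FOSL1 and FOSL2 with shCont, 52.5% with shp16 and 73.7% with shp16+shATR, while FOS made up 17.6%, 28.6% and 15%. FOSL1 fell by 0.46 in shp16 on the log2 scale (adjusted p = 0.0483, edgeR) and rose by 0.71 in shp16+shATR against shp16 (adjusted p = 0.0139, edgeR), the reverse of FOS. The family sum was 83.3 ± 6.04, 70.4 ± 6.13 and 81.8 ± 3.13 FPKM. Within the JUN family, JUND made up 53.0%, 55.0% and 67.3% and JUN 17.6%, 23.4% and 14.4%. Within the EGR family, EGR1 made up 74.2%, 90.6% and 85.9%, of sums of 22.3 ± 2.04, 54.6 ± 1.40 and 23.7 ± 0.22 FPKM.

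**Figure D4:**
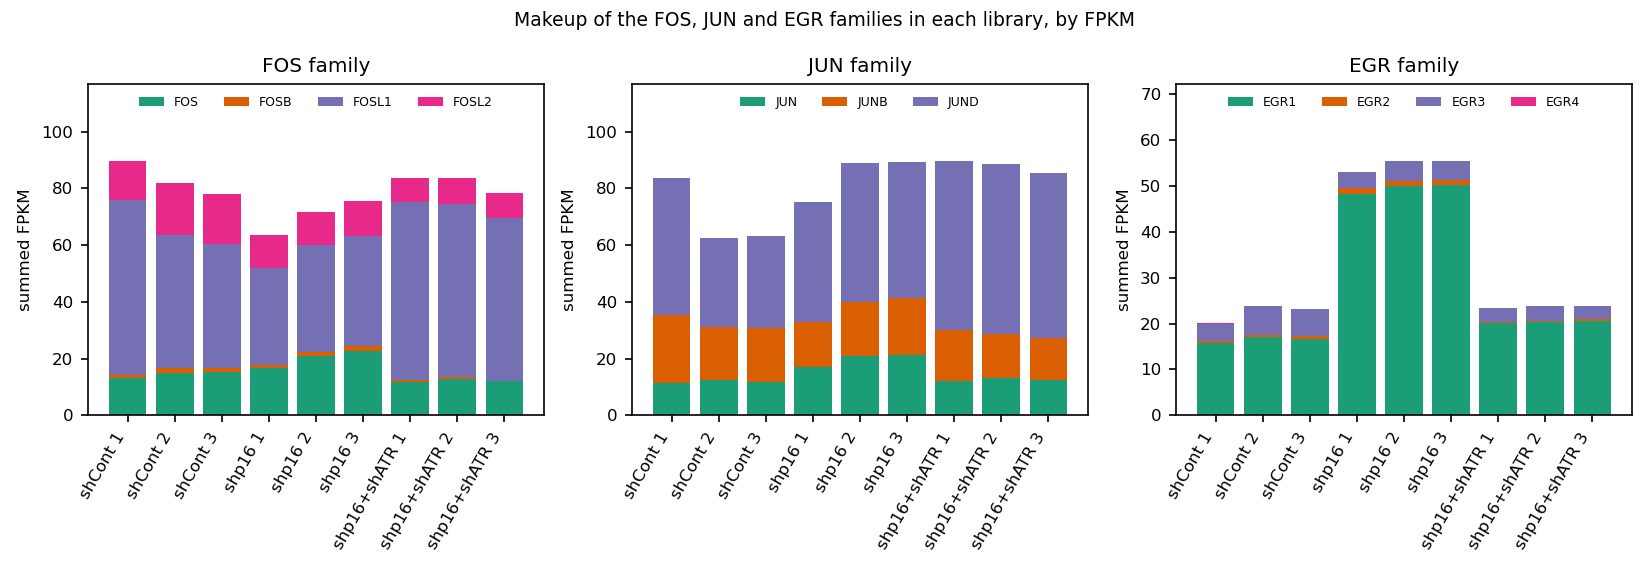
Summed FPKM (vertical axis, from 0) of the FOS, JUN and EGR families in each library, with each gene's part stacked. The EGR sum averaged 54.6 FPKM in shp16 against 22.3 in shCont and 23.7 in shp16+shATR, while the FOS sum was led by FOSL1 in every library.

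Promoter sequence from RefSeq (GRCh38.p14) was found for 8 of the 10 members. The 250 bases before the start are given for the 3 genes that rose with p16 knockdown. Capitals mark the CArG box, the site of the serum response factor SRF, and the CRE half-site TGACGT (on the opposite strand it reads ACGTCA) in EGR1, TGACGT and the TATAAA box in FOS, and the CRE-like TGACATCA in JUN. The EGR1 window is chr5:138465229-138465478 on the plus strand, the FOS window chr14:75278578-75278827 on the plus strand and the JUN window chr1:58784048-58784297 on the minus strand. GENCODE 29 places the starts of the principal FOS and JUN transcripts further upstream, so these windows follow the RefSeq starts only.
EGR1: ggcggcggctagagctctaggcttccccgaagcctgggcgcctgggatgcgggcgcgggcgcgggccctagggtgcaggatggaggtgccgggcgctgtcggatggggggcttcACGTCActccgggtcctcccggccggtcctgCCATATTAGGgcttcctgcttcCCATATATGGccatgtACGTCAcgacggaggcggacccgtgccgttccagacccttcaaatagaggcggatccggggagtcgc
FOS: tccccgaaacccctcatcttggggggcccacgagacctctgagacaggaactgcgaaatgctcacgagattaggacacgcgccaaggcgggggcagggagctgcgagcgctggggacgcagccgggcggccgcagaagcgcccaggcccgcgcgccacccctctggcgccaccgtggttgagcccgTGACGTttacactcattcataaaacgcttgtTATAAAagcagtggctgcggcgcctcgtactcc
JUN: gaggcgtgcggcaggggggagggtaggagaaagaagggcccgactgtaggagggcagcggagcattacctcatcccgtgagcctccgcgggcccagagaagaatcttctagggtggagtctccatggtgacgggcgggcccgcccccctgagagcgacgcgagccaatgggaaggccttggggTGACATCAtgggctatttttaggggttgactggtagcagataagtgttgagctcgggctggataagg

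Of the 8 member windows, the EGR1 window alone held a CArG box, which it held at -105 to -96 and at -83 to -74, and 1.16% of all 35116 windows held one on either strand. Bases further upstream than 250 were not searched, so a site there would be missed for any of the genes. TGACGT was in 5 of the 8 (EGR1, FOS, FOSB, FOSL2 and JUND) and in 7.1% of all windows, and it overlaps with the full CRE, TGACGTCA, which was in the JUND window and 1.65% of all. TGACATCA was in the JUN window at -67 to -60 and in 2.37% of all. TATAAA, searched on the gene's strand alone, was in FOS, FOSB and JUNB and in 6.8% of all. No match was found in the 8 windows for the AP-1 element TGAGTCA (4.2% of all), the EGR element GCGGGGGCG (4.72%), the MYC element CACGTG (6.34%) and the ETS elements CCGGAAGT (3.42%) and CAGGAAGT (2.6%), each searched on both strands.

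The members were also compared with other coding genes for features of their transcripts. The 3′UTR held the ATTTA element, a mark of AU-rich decay elements, in 9 of the 10 (all but IER2), against 67% of 18894 coding genes in GENCODE 29. MYC had 8.4 ATTTA per kb of 3′UTR, FOS 6.2 and JUNB 4.0, against a median of 1.49. The nonamer TTATTTATT was in FOS and FOSL2 and in 8.05% of coding genes, and it is shown in capitals with the bases around it because one of these genes rose and the other fell in shp16.
FOS: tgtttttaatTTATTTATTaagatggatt
FOSL2: atttattttaTTATTTATTttaaatgttt

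JUN, JUNB, JUND and IER2 have a single exon, as 6.5% of coding genes do. GC content was above the coding-gene median of 49.7% for all 10.

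Genes around the members were counted by list, each with the same test. Of all genes tested, 7.23% were called higher and 7.59% lower in shp16 against shCont. The shares were 2.73% and 3.49% in shp16+shATR against shp16. Without the library labelled shCont replicate 1, 25.9% and 19.9% were called in either direction in these comparisons. The lists are short, so a count near these shares is not a result about the list. Of the other AP-1 and partner bZIP genes, 3 were called higher and 2 lower of 11 tested in shp16 against shCont, and 1 higher and 1 lower in shp16+shATR against shp16. ATF3, a stress-induced AP-1 partner, rose by 1.23 on the log2 scale (adjusted p = 0.00551, edgeR) and then fell by 1.39 (adjusted p = 0.00683, edgeR), from 1.66 CPM in shCont to 3.89 in shp16 and 1.47 in shp16+shATR. ATF7 rose by 0.63 in shp16 (adjusted p = 0.00285, edgeR) and JDP2 by 1.09 (adjusted p = 0.0224, edgeR), while BATF2, at 2.21 CPM in shCont and 1.197 in shp16, fell by 0.88 (adjusted p = 0.0295, edgeR). Leaving out the library labelled shCont replicate 1 gave 3 higher and 3 lower in shp16, and 1 higher and 2 lower with the ATR hairpin added.

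Of the other EGR genes and the NAB corepressors that bind EGR proteins, 1 of 3 was called higher in shp16 against shCont, and 1 higher and 1 lower in shp16+shATR against shp16. EGR2 rose by 1.44 on the log2 scale in shp16 (adjusted p = 0.00463, edgeR) and fell by 1.91 with the ATR hairpin added (adjusted p = 0.00312, edgeR), on means of 1.28, 3.48 and 0.921 CPM in shCont, shp16 and shp16+shATR. NAB2, a corepressor that EGR1 is known to induce, stood at 93.7, 86.1 and 133 CPM and was called higher in shp16+shATR than in shp16 (log2 0.62, adjusted p = 0.0193, edgeR), as were 2 of the 3 genes without the library labelled shCont replicate 1.

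Of 33 other immediate early genes tested, 3 were called higher and 6 lower for shp16 against shCont (median -0.24, and -0.016 over all genes), and 3 higher and 4 lower in shp16+shATR against shp16. CTGF fell by 1.24 on the log2 scale in shp16 (adjusted p = 3.78e-05, edgeR) and rose by 0.68 in shp16+shATR against shp16 (adjusted p = 0.00572, edgeR). SGK1, a kinase, fell by 0.67 (adjusted p = 0.00167, edgeR), PPP1R15A, a regulator of the stress response, by 0.80 (adjusted p = 0.00575, edgeR) and GADD45B by 0.79 (adjusted p = 0.0175, edgeR) in shp16. With the ATR hairpin added, PLK2 fell by 0.79 (adjusted p = 0.00507, edgeR), NR4A3, an orphan nuclear receptor, by 0.69 (adjusted p = 0.0166, edgeR), and ID1 rose by 0.98 (adjusted p = 0.00986, edgeR). The counts without the library labelled shCont replicate 1 were 3 higher and 9 lower in shp16, and 6 higher and 8 lower with the ATR hairpin added.

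Of the SRF, ternary complex and CREB factors, SRF was the 1 of 12 called higher in shp16 (log2 0.40, adjusted p = 0.0486, edgeR). SRF (-0.54, adjusted p = 0.0255, edgeR) and ELK1, its ternary complex partner (-0.56, adjusted p = 0.00614, edgeR), were the 2 of 12 called lower in shp16+shATR against shp16, and 6 of 12 were lower without the library labelled shCont replicate 1. SRF averaged 37.0, 48.9 and 33.6 CPM for shCont, shp16 and shp16+shATR, and so was highest in shp16, as EGR1, FOS and JUN were. Of the 14 MAP kinases upstream, MAPK14, which encodes p38 alpha, was the 1 called higher in shp16 (0.47, adjusted p = 0.0401, edgeR), and MAPK9, which encodes a JNK, the 1 called lower in shp16+shATR against shp16 (-0.59, adjusted p = 0.017, edgeR). Of all genes, 7.23% were called higher in the first comparison and 3.49% lower in the second, so these counts show nothing particular to the MAP kinases. Of these 14, 5 were called higher and 2 lower in shp16 without the library labelled shCont replicate 1, and 2 higher and 3 lower in shp16+shATR against shp16.

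The ERK feedback genes are transcripts used as a readout of ERK activity. Of 15 tested, 4 were called lower and 1 higher in shp16 against shCont, and 2 were called higher in shp16+shATR against shp16. DUSP6, an ERK phosphatase, fell by 0.54 in shp16 (adjusted p = 0.00828, edgeR) and rose by 0.63 with the ATR hairpin added (adjusted p = 0.00808, edgeR). CCND1, which encodes cyclin D1, fell by 1.06 (adjusted p = 0.00146, edgeR) and then rose by 0.70 (adjusted p = 0.0278, edgeR). SPRY4, an inhibitor of the pathway, fell by 0.55 in shp16 (adjusted p = 0.0159, edgeR), and EPHA2, a receptor kinase, rose by 1.48 (adjusted p = 0.000344, edgeR). The counts without the library labelled shCont replicate 1 were 8 lower and 2 higher in shp16, and 5 higher and 1 lower in shp16+shATR against shp16.

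**Figure D5:**
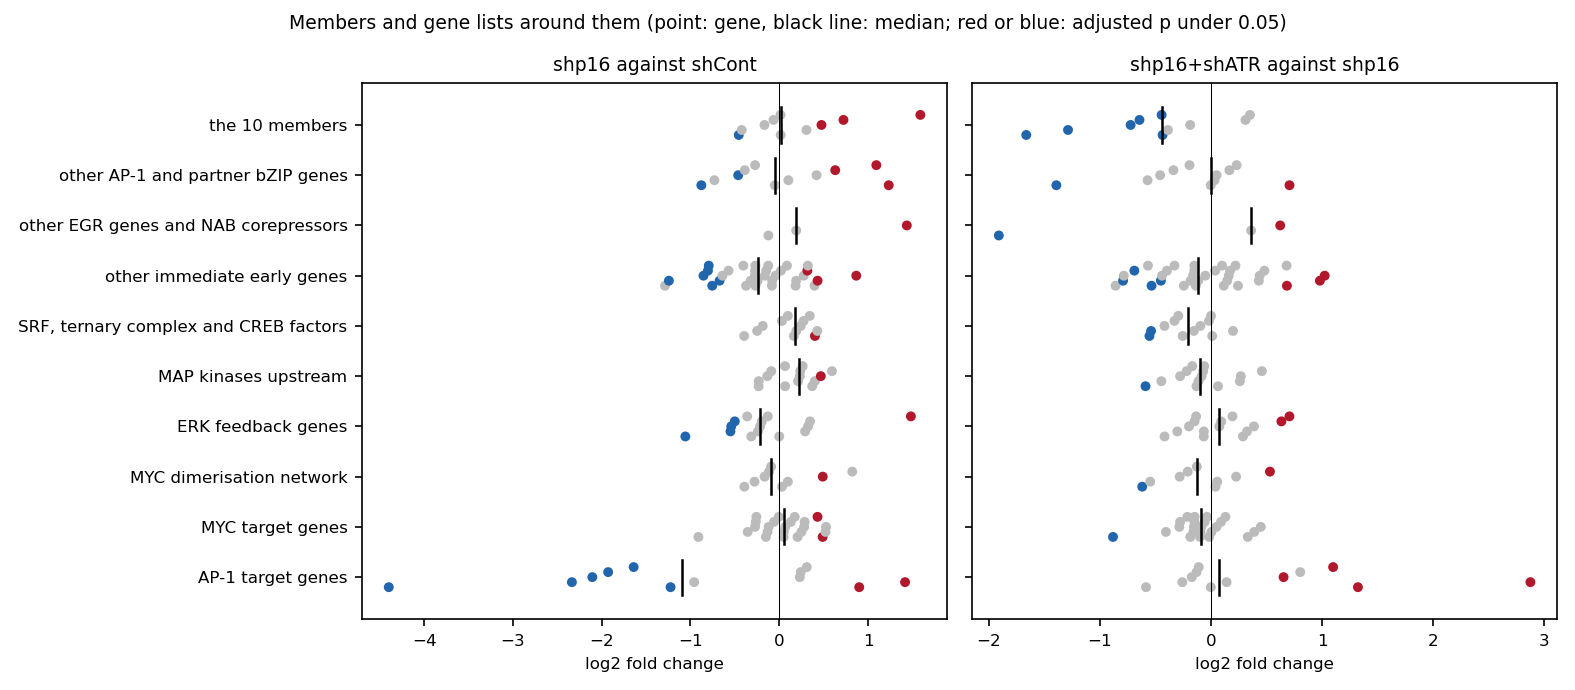
log2 fold change (horizontal axis) of the 10 members and of the tested genes of 9 lists for p16 knockdown (left) and for the ATR hairpin added to it (right), with each list's median as a black line. The AP-1 target genes had a median of -1.09 in the first comparison, and the members one of -0.44 in the second.

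Of the AP-1 target genes, 6 of 12 tested were called lower and 2 higher in shp16 against shCont, where FOS and JUN rose and FOSL1 and FOSL2 fell. Those called higher were KRT18 (log2 1.42, adjusted p = 0.00183, edgeR) and SPP1 (0.90, adjusted p = 0.00306, edgeR). IL11, a cytokine, fell by 4.40 on the log2 scale (24.01 CPM with shCont and 1.13 with shp16, adjusted p = 1.31e-06, edgeR). The chemokine gene IL8 fell by 2.34 (96.9 and 19.2 CPM, adjusted p = 1.12e-07, edgeR). MMP1, a collagenase, fell by 1.93 (11.2 and 2.94 CPM, adjusted p = 2.58e-05, edgeR) and PLAUR, the urokinase receptor, fell by 1.64 (74.1 and 23.8 CPM, adjusted p = 0.000352, edgeR). With the ATR hairpin added, 4 of the 12 were called higher, among them the chromatin protein gene HMGA2 by 1.32 (adjusted p = 0.000105, edgeR), PLAUR by 1.10 (adjusted p = 0.00992, edgeR) and MMP1 by 0.65 (adjusted p = 0.0489, edgeR). Without the library labelled shCont replicate 1, 5 of 12 were lower and 3 higher in shp16.

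Of the MYC dimerisation network, 1 of 9 was called higher in shp16 against shCont, and 1 higher and 1 lower in shp16+shATR against shp16. MLXIP, a relative of the MYC partners, rose by 0.49 (adjusted p = 0.019, edgeR) and then fell by 0.62 (adjusted p = 0.0118, edgeR), and MXD4, a MYC antagonist, rose by 0.53 in the latter (adjusted p = 0.0489, edgeR). Of 23 MYC target genes, 2 were called higher in shp16, namely CDK4 (0.49, adjusted p = 0.0276, edgeR) and NOLC1 (0.43, adjusted p = 0.0242, edgeR). This is near the 7.23% of all genes called higher there. RRS1, a ribosome assembly factor, was the 1 called lower in shp16+shATR against shp16 (-0.88, adjusted p = 0.00467, edgeR), where MYC itself fell. Of the 23, 7 were called higher in shp16 without the library labelled shCont replicate 1, and 2 higher and 3 lower in shp16+shATR against shp16. Of all genes, 25.9% and 19.9% were then called in either direction. Of the dimerisation network, 2 of 10 were then higher in shp16.

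Of 11 heat shock genes, HSPA1B (0.81, adjusted p = 0.00433, edgeR) and BAG3 (0.32, adjusted p = 0.0443, edgeR) were called higher in shp16 against shCont, and 4 were without the library labelled shCont replicate 1. Of all genes, 7.23% were called higher with all libraries, and 25.9% were called in either direction without that library.

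The genes whose level over the 9 libraries was most like that of a member were taken by Pearson correlation of log2 CPM among 10728 genes with a mean of at least 5 CPM. The libraries fall into 3 groups and share depth and preparation, so the values are a description. EGR1 was most like PLEKHG3 (r = 0.99), LRRC8A (0.98) and DUSP3 (0.97). JUN was most like UNG (0.99), TESK2 (0.98) and PLEKHG3 (0.96), FOS most like KIFC1, CLSTN1 and CTDSP2 (each 0.97), and MYC most like SNRPB (0.99), SLCO4A1 (0.99) and CCDC28A (0.97). Of the member pairs, EGR1 and JUN had an r of 0.98 and JUND and EGR3 one of -0.97. The latter includes the library labelled shCont replicate 1, which differed from its replicates by 0.69 for JUND and -0.52 for EGR3. The r without that library was not computed.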

How the data were processed

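The authors deposited a table of raw counts per gene and a table of FPKM values for 9 RNA-seq libraries of SKMEL28, and the submitters' processing notes name STAR 2.6.1, DESeq2 2 and GRCh38. The deposited FPKM values equal the counts scaled by gene length and total count, to a largest relative difference of 4.22e-07 for the column of the same group. RNA was extracted with Trizol and a column with DNase, and libraries were made with a NEBNext Ultra 2 kit. The table's gene coordinates are given as deposited. They are not those of GRCh38, since 301 of the 45342 genes found in GENCODE 29 share the start and 0 of the 10 members do. The members and gene lists were chosen with earlier results of these data known.

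Counts were filtered by filterByExpr, scaled by TMM and fitted by edgeR 4.0.16 (quasi-likelihood, R 4.3.3) over all 9 libraries with 1 coefficient per group, and p-values were adjusted by Benjamini-Hochberg over 15776 genes, with calls at an adjusted p below 0.05. CPM are TMM-normalized. The depth of a value is the count behind it: the members had 94 to 12741 counts per group. Alternatives were other scalings and filters, limma 3.58.1 on log2(FPKM + 1) or + 0.1, DESeq2 1.42.0, a replicate block, only the groups compared, a threshold of 0.01, shp16 replicates 2 and 3 summed, and each library left out, and, added after seeing the data, removal of GC content and gene length trends and leaving out both libraries that stood apart. No pair of replicates agreed within sampling noise. The edgeR fit was tested on simulated data. It recovered 67% of changes of log2 1 in the first comparison and 73.2% in the second. Of changes of log2 0.5 it recovered 8.16% and 9.18%. Only 97 genes were changed by log2 1 and 98 by log2 0.5, of 15433 tested and in shp16 alone. In the deposited data 2339 and 981 genes were called, which makes the adjusted threshold less strict. The simulated shares are therefore not the shares of changes missed here. The named genes were the members, the up to 4 list genes with the smallest adjusted p per list in the first and second comparison, CDKN2A and ATR, and the 3 genes most like FOS, JUN, EGR1 and MYC. Beyond this rule, KRT18 and SPP1 were named as the AP-1 targets called higher in the first comparison. The result of 1 gene that this rule names is not reported here. Promoter windows were 250 bases before the RefSeq start.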

Additional observations from a re-analysis of the deposited data

How the results depend on the processing

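Results were recomputed with 23 alternatives for shp16 against shCont and 22 for each other comparison. The EGR1, FOS, JUN and FOSB falls in shp16+shATR against shp16 and the EGR1 rise in shp16 were called in all of them. In shp16 against shCont, 4 members were called. The count was 2 with only the groups compared, with limma on log2(FPKM + 0.1), at an adjusted p of 0.01 and with shp16 replicates 2 and 3 summed. It was 8 without shCont replicate 1 and shp16 replicate 1, where 32.7% of all genes were called, and 2 to 6 on leaving out 1 library. In shp16+shATR against shp16 the count of 6 ran from 4 to 8 on leaving out 1 library. The count there was 5 with upper-quartile factors or library size only, and 4 with limma. In shp16+shATR against shCont it was 3 at an adjusted p of 0.01, against 6, and 4 to 8 on leaving out 1 library. The cause of these changes was not tested, other than the stricter threshold and the fewer libraries. The share of all genes called was taken only with all libraries, without shCont replicate 1, and without both libraries that stood apart. Counts under the other alternatives, the replicate block included, therefore show nothing particular to the members.

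With the replicate number as a block, edgeR called 1 member in shp16 against shCont and limma on log2(FPKM + 1) called 4, and limma called 4 in shp16+shATR against shp16 and 5 in shp16+shATR against shCont. The deviations of same-numbered libraries from their group means had correlations of -0.303 to 0.289. These show no pairing by number, but with 3 libraries per group they cannot exclude one. A blocked edgeR fit with the shp16+shATR count columns was not run, since these columns share a single name.

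The sign changed for members that were not called in shp16 against shCont. FOSB ran from -0.22 to 0.10 on leaving out 1 library. JUNB was 0.051 without both libraries that stood apart and 0.011 with GC content and length trends removed. IER2 was -0.045 with upper-quartile factors and -0.054 with shp16 replicates 2 and 3 summed, and ran from -0.16 to 0.25 on leaving out 1 library. MYC was -0.045 and -0.014 under the same settings, and ran from -0.041 to 0.12 on leaving out 1 library. No member changed sign in the other comparisons. Depth limits FOSB most, at 94 counts in shp16+shATR.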
